A study of Homo sapiens with 32 samples.

Results

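The lysyl oxidase family comprises LOX and the LOX-like enzymes LOXL1, LOXL2, LOXL3 and LOXL4. Every probe set whose annotation symbol was 1 of these 5 genes was taken, which gave 11 of the 54675 probe sets on the array, or 5 of the 19775 genes named there. LOX had 3 probe sets, LOXL1 had 1, LOXL2 had 4, LOXL3 had 1 and LOXL4 had 2. The family was followed through 32 arrays in 16 groups.

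Lysyl oxidases are secreted, copper-dependent amine oxidases. They convert lysine side chains of collagens and elastin to aldehydes, which then react with each other and lock the fibres together. LOX and LOXL1 are made as proenzymes with a propeptide that is removed outside the cell, by BMP1-type proteinases for LOX, whereas LOXL2, LOXL3 and LOXL4 carry scavenger receptor cysteine-rich domains. In tumours LOX is known as a hypoxia-induced gene tied to matrix stiffening, and LOXL2 as a cross-linker of basement membrane collagen.

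RNA came from H1299 and A549, established human lung cancer cell lines that are both known to lack functional SMARCA4. Their total RNA was hybridised to Affymetrix HG-U133 Plus 2.0 arrays. Each line carried a short hairpin RNA (shRNA) and a cDNA. The hairpin was S2sh7, aimed at the stretch of SMARCA2 that encodes its ATPase domain, or the control shLuc, aimed at luciferase. The cDNA in H1299 was wild-type SMARCA2 (WT), bromodomain mutant SMARCA2 (BRD), ATPase dead SMARCA2 (ATPdead) or GFP, and in A549 it was the same set of forms of SMARCA4 or GFP. SMARCA2 and SMARCA4 are the alternative ATPases of the SWI/SNF nucleosome remodelling complexes. All groups were stable lines, untreated and grown in RPMI with serum, and the labels do not say whether a line was a clone or a pool. There were 3 arrays, called biological replicates, in each of 8 H1299 groups, but only 1 array in each of 8 A549 groups. Whether replicates stem from separate infections or cultures is not stated, and every p-value below therefore reflects the spread of these samples alone, which may be technical. H1299 is labelled as a first batch and A549 as a second, so line, batch and the choice of SMARCA2 or SMARCA4 cDNA cannot be told apart, and no test was made between the lines.

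The promoters of LOX and LOXL1 are shown because these members moved in opposite directions when SMARCA2 was knocked down in H1299, and because LOX is a known target of the hypoxia-inducible factors. Each run covers 250 bases before and 50 bases after an annotated RefSeq start, 5′ to 3′ on the strand of the gene, in build GRCh38.p14. The LOX window is the most upstream of 3 in the table and lies at chr5:122078210-122078509 on the minus strand, and the LOXL1 window lies at chr15:73926212-73926511 on the plus strand. Capitals mark ACGTG, the core of the hypoxia response element, on either strand, and this core also lies inside the CACGTG E-box.
LOX: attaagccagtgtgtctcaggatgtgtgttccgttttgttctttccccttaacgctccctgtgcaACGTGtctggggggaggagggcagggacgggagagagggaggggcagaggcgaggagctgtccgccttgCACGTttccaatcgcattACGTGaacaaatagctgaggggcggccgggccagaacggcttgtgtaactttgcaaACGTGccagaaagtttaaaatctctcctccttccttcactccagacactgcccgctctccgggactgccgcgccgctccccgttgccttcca
LOXL1: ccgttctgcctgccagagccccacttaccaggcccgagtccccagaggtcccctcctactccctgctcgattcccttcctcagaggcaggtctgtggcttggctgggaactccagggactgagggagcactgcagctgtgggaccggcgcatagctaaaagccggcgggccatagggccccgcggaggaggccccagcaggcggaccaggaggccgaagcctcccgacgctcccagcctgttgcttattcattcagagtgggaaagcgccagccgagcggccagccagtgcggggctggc
The LOX window held 4 copies, which began 185, 116, 98 and 42 bases before the start. The windows of LOXL1, LOXL3 and LOXL4 held none. At least 1 copy occurred in 21.4% of 35116 such windows of all genes, and at least 4 copies in 0.843% of them. This cutoff of 4 is the count in the LOX window itself, so the share is no test. The LOXL3 window was the most upstream of 2, and copies in the other LOX and LOXL3 windows are not given. Of 4 further motifs searched on both strands, CAGGTG (an E-box bound by SNAI factors) occurred once in the LOXL4 window and in 20.6% of all windows. GGAATG (TEAD factors) had 2 copies in the LOXL3 window and at least 1 in 14% of all windows. TGANTCA (AP-1, 7.71% of windows) and TATAAA (11.5%) had no match in any of the 4 windows. These matches describe letters and are no evidence of binding in these cells.

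Measurement precision was high in H1299. Replicates correlated at 0.9971 to 0.9984 over all probe sets and the median residual SD was 0.0731 log2. In A549, where precision comes from departures from an additive model of cDNA and hairpin, the median residual SD was 0.110 log2, and the number of arrays limits what could be detected. The targeted gene was lower with S2sh7 in every cDNA line on 206542_s_at, but not on every SMARCA2 probe set. In H1299, 212258_s_at was not called in any background. Its log2 fold changes were -0.11 with GFP, 0.06 with WT, 0.15 with BRD and 0.06 with ATPdead. A SMARCA2 probe set that was not called between any cDNA lines (206542_s_at) had group means of 27.03 to 31.99 with S2sh7, against 69.0 to 79.7 with shLuc in H1299, and 32.4 to 36.0 with S2sh7, against 292 to 319 with shLuc in A549. Some SMARCA4 probe sets were also called lower with S2sh7 in H1299 with GFP. Their log2 fold changes were -0.68 (213720_s_at), -0.60 (208794_s_at), -0.38 (215714_s_at) and -0.29 (214728_x_at). SMARCA4 208793_x_at (-0.003) and 1569073_x_at (-0.06) were not called. With WT, BRD and ATPdead, 208794_s_at (-0.33, -0.30 and -0.37) and 215714_s_at (-0.14, -0.16 and -0.25) were called lower as well. The effect on 215714_s_at was less negative with WT than with GFP (difference 0.24, limma adjusted p = 0.0489). No other tested SMARCA4 probe set passed for that difference. The part of this SMARCA4 difference in the results below was not tested. Intensities here are the deposited values on a linear scale, and probe sets below a log2 value of 5 in all but 2 arrays of a line were not tested. Most listed markers of other cell types did not pass the filter in H1299, while some of each list did. The summed intensity of 7 fibroblast markers was 233.5 to 266 with S2sh7 and 223 to 256 with shLuc. LUM, PDGFRA, COL3A1 and PDGFRB were never above 21.45, and 3 of 7 passed (COL1A1, mean 119, THY1, 40.3, and DCN, 35.6). Of 3 leukocyte markers found 1 passed (CD3E, mean 36.7), with sums of 52.2 to 60.4 with S2sh7 and 51.9 to 62.2 with shLuc. PTPRC and CD14 never exceeded 13.1. Of 4 endothelial markers 1 passed (PECAM1, mean 44.1), with sums of 72.95 to 88.5 with S2sh7 and 75.4 to 86.8 with shLuc. CDH5 and KDR never exceeded 9.57, and VWF never exceeded 24.6. Of 7 carcinoma markers KRT8, KRT18, KRT7 and VIM passed in H1299, while EPCAM, CDH1 and KRT19 did not, and all 7 passed in A549. The carcinoma markers summed to 20760 to 21860 with S2sh7 and 23250 to 24090 with shLuc in H1299. Within that sum VIM, its brightest gene, averaged 13.8 log2 with S2sh7 and 13.77 with shLuc, whereas KRT7 averaged 5.78 with S2sh7 and 6.85 with shLuc, KRT8 10.16 with S2sh7 and 10.72 with shLuc, and KRT18 12.51 with S2sh7 and 12.94 with shLuc. The part of this keratin difference in the results below was not tested.

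Of the 11 probe sets, 8 were bright enough to be tested in H1299 and 7 in A549. The LOX and LOXL1 probe sets passed in H1299 and in none of the 8 A549 arrays. The brightest LOX probe set stood at percentile 86.6 of all probe sets in H1299 and at percentile 7.47 in A549, and LOXL1 at percentiles 87.5 and 25.3. LOXL2 passed in both lines, with its brightest probe set at percentile 86.1 in H1299 and 79.1 in A549. The lines were normalized separately, so these ranks describe each line on its own. The fixed cutoff of log2 5 lay above the array medians in H1299 and below them in A549, so it was easier to pass in A549. LOXL2 202999_s_at, for example, stood at percentile 48.2 in H1299 and was not tested, but at percentile 47.3 in A549 and was tested.

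LOX, the founding member, was higher with the SMARCA2 hairpin in every H1299 background. With GFP, the LOX probe set 215446_s_at read 522, 520 and 532 with S2sh7, against 222, 188 and 200.5 with shLuc. With ATPdead SMARCA2 it read 611, 612.5 and 589 with S2sh7, against 231, 220.4 and 238 with shLuc. The 3 S2sh7 arrays lay far above the 3 shLuc arrays in both backgrounds. The log2 fold change was 1.37 with GFP (SE 0.057, 2.58-fold, limma adjusted p = 7.08e-13) and 1.39 with ATPdead (SE 0.057, adjusted p = 7.29e-13). With WT SMARCA2 the probe set read 374, 334.5 and 367 with S2sh7, against 203, 189.8 and 214 with shLuc. With BRD it read 372, 357 and 365 with S2sh7, against 201, 185 and 184 with shLuc. The groups still did not overlap, but the rise was smaller, 0.82 with WT (1.77-fold, adjusted p = 1.95e-09) and 0.94 with BRD (1.92-fold, adjusted p = 3.91e-10). In bulk RNA, more LOX RNA per cell and more LOX-expressing cells cannot be told apart.

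The other LOX probe sets gave the same order. With GFP, 204298_s_at read 328, 314 and 326 with S2sh7, against 118, 103 and 116 with shLuc, and 213640_s_at read 94.1, 100.5 and 83.2 with S2sh7, against 39.1, 35.5 and 42.1 with shLuc. Their knockdown effects were 1.53 and 1.25 log2 with GFP, 0.98 and 0.77 with WT and 1.16 and 1.04 with BRD. With ATPdead 204298_s_at rose by 1.59 log2, to 401, 377 and 363 with S2sh7, against 111, 136 and 134 with shLuc. The dimmest LOX probe set, 213640_s_at, was also the most scattered, at 133, 92.2 and 106 with S2sh7 and ATPdead. All 3 probe sets were called in all 4 backgrounds, so a choice among them does not change the direction.

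LOXL2, the basement membrane cross-linker, went the other way. Its brightest probe set, 202998_s_at, read 168, 166 and 172 with S2sh7 and GFP, against 397.5, 362 and 374 with shLuc and GFP. With ATPdead it read 207, 182 and 206 with S2sh7, against 400.2, 395 and 408 with shLuc. No S2sh7 array reached the level of any shLuc array. The fall was 1.16 log2 with GFP (SE 0.042, 2.24-fold lower, adjusted p = 1.11e-13) and 1.02 with ATPdead (2.03-fold lower, adjusted p = 9.11e-13). With WT SMARCA2 the values were 241, 247 and 241 with S2sh7, against 416, 405 and 416 with shLuc, and with BRD 233.5, 242.5 and 232 with S2sh7, against 417, 416.5 and 405 with shLuc. These falls were smaller, with log2 fold changes of -0.765 with WT (adjusted p = 9.55e-11) and -0.81 with BRD (adjusted p = 4.81e-11).

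A dimmer LOXL2 probe set, 202997_s_at, fell as well, but less. It read 52.8, 51.8 and 41.2 with S2sh7 and GFP, against 67.0, 69.7 and 63.6 with shLuc and GFP, a log2 fold change of -0.47 (SE 0.087, adjusted p = 0.000359). Its fold change was -0.64 with WT, -0.38 with BRD and -0.56 with ATPdead, all called. This order over the cDNAs is not that of 202998_s_at, for which the fall was largest with GFP. The 2 remaining LOXL2 probe sets, 202999_s_at and 228808_s_at, stayed between 16.8 and 28.8 on all 24 H1299 arrays, below the level at which a probe set was tested.

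LOXL1, which is needed for elastic fibre renewal in mice, fell in 3 of the 4 backgrounds. With GFP its probe set 203570_at read 254, 278 and 268 with S2sh7, against 366, 367.5 and 370.3 with shLuc. The fall was 0.46 log2 (SE 0.039, 1.38-fold lower, adjusted p = 1.70e-08). With ATPdead the values were 293, 288 and 298 with S2sh7, against 378, 369 and 392 with shLuc, and with BRD they were 338, 340.1 and 322 with S2sh7, against 406, 432 and 420 with shLuc. The groups did not overlap, and the log2 fold changes were -0.37 with ATPdead and -0.33 with BRD (adjusted p = 4.22e-07 and 2.88e-06). With WT SMARCA2 the arrays read 319, 314 and 310.3 with S2sh7, against 330.0, 325 and 355 with shLuc. The arrays did not overlap there either, but the difference of -0.10 log2 did not pass (95% interval -0.18 to -0.01, adjusted p = 0.0744). Without shLuc WT replicate 2 it was -0.12 and passed (adjusted p = 0.0488).

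LOXL3, which acts in cartilage and palate formation in mice, and LOXL4 were dim in H1299 and moved little. The LOXL3 probe set 228253_at ranged from 43.2 to 62.2 over the 24 arrays. It was called only with ATPdead, at 61.4, 51.9 and 55.8 with S2sh7, against 50.0, 47.3 and 45.6 with shLuc (log2 fold change 0.24, SE 0.078, adjusted p = 0.0245). That call was lost without S2sh7 ATPdead replicate 1 (0.18, adjusted p = 0.128) or shLuc ATPdead replicate 2 or 3 (0.24 and 0.21, adjusted p = 0.0629 and 0.0937). With WT its difference of 0.20 did not pass (adjusted p = 0.0627), but did without S2sh7 WT replicate 3 (0.25, adjusted p = 0.0430). The LOXL4 probe set 1570219_at was called only with BRD, at 46.6, 41.9 and 43.3 with S2sh7, against 36.1, 32.7 and 36.2 with shLuc (0.33, SE 0.101, adjusted p = 0.0215). That call was lost without S2sh7 BRD replicate 1 (0.285, adjusted p = 0.0842) or shLuc BRD replicate 2 (0.28, adjusted p = 0.0836). With GFP the LOXL4 difference of 0.12 passed only without shLuc GFP replicate 2 (0.26, adjusted p = 0.0337). The second LOXL4 probe set, 227145_at, stayed between 21.1 and 30.04 and was not tested.

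**Figure D1:**
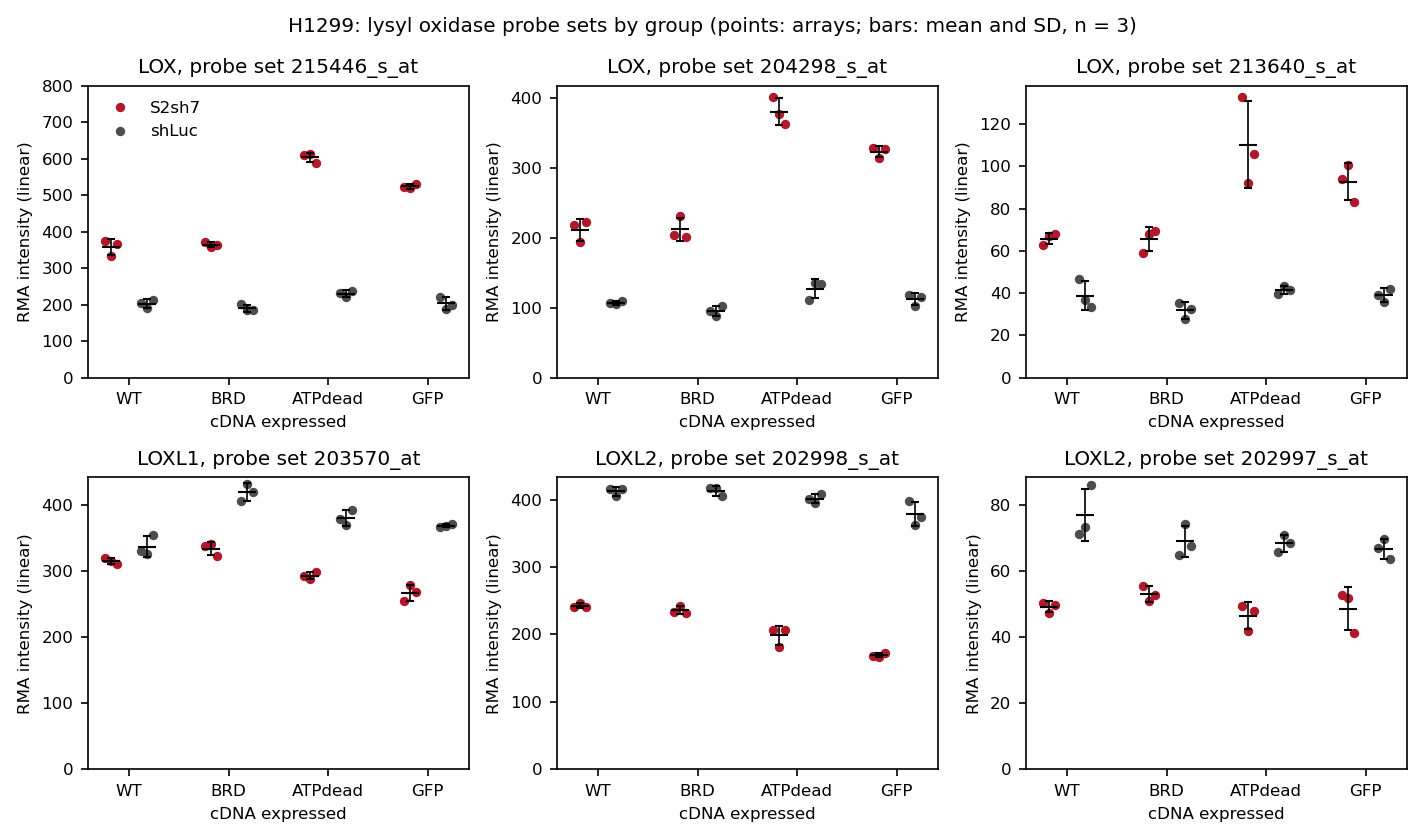
Linear RMA intensity (y axis, from 0) of 6 lysyl oxidase probe sets in H1299 by cDNA (x axis), with 1 point per array and bars for the mean and SD of 3 arrays, S2sh7 in red left of shLuc in grey. The LOX points with S2sh7 lie above those with shLuc in all 4 backgrounds and are lowest with WT and BRD, while the LOXL2 points with S2sh7 lie below those with shLuc.

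Counted over the family, the hairpin with GFP gave 3 higher, 3 lower and 2 uncalled of the 8 tested probe sets, while 31.2% of all 26637 tested probe sets were called (12.9% higher and 18.3% lower). With WT SMARCA2 it gave 3 higher, 2 lower and 3 uncalled (27.1% of all probe sets called, 13.6% higher and 13.5% lower). With BRD there were 4 higher, 3 lower and 1 uncalled (25.5% of all called, 10.3% higher and 15.2% lower), and with ATPdead the same split (30% of all called, 15.8% higher and 14.2% lower). The median log2 fold change of the 8 was 0.11 with GFP, 0.10 with WT, 0.23 with BRD and 0.12 with ATPdead, against medians between -0.003 and 0.009 over all probe sets. Since LOX and LOXL2 moved apart, such a median describes no member. Ranked by the size of the moderated statistic with GFP, LOXL2 202998_s_at stood at place 19 and LOX 215446_s_at at place 33 of 26637.

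**Figure D2:**
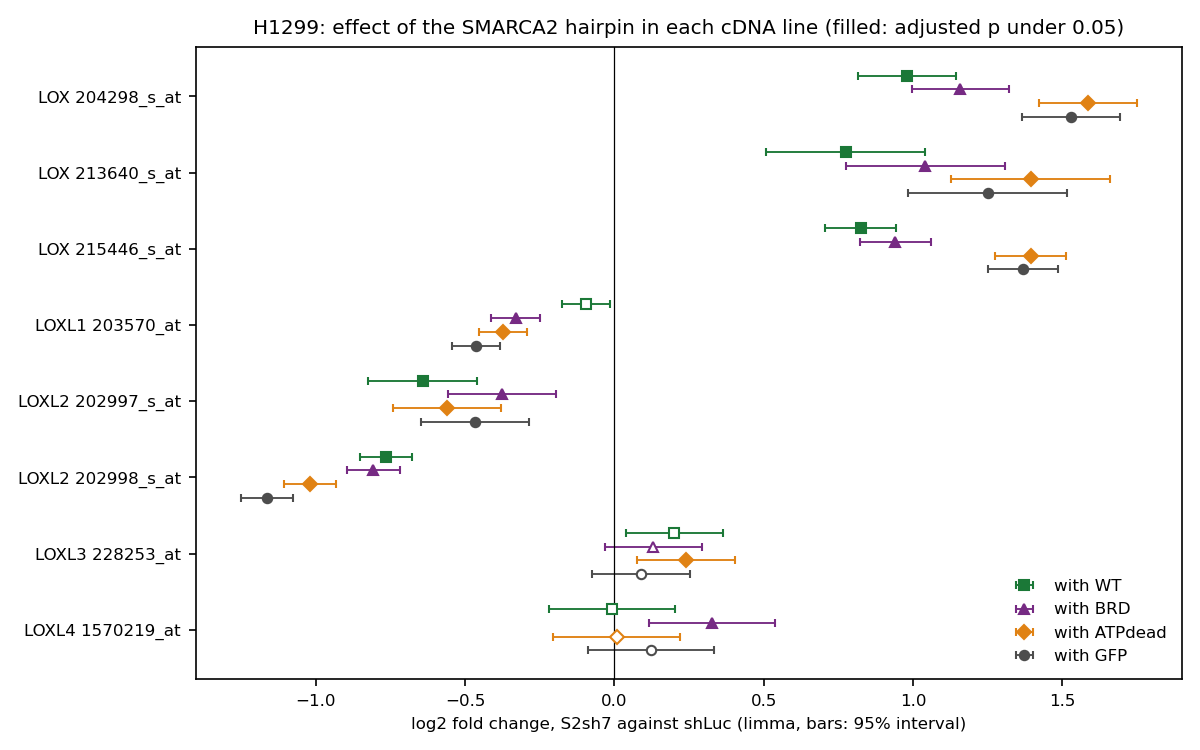
Log2 fold change of S2sh7 against shLuc in H1299 (x axis) for the 8 tested lysyl oxidase probe sets (y axis) with WT, BRD, ATPdead and GFP, bars giving the 95% interval and filled symbols an adjusted p under 0.05. All 3 LOX probe sets lie to the right of 0 and both LOXL2 probe sets and LOXL1 to the left, and LOX 215446_s_at is nearer to 0 with WT (0.82) and BRD (0.94) than with ATPdead (1.39) and GFP (1.37).

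Whether a SMARCA2 cDNA changed the effect of the hairpin was tested as the difference of 2 knockdown effects, the effect with the cDNA minus the effect with GFP. These 3 tests share the GFP arrays. With WT SMARCA2, 4 of 8 tested members differed, against 2.04% of all probe sets. Here and below, members are counted by probe set, not by gene. LOX gives 3 of the 8 in H1299 and LOXL2 gives 2, and probe sets of the same gene are not independent. The rise of LOX was smaller by 0.54 log2 in 215446_s_at (difference -0.54, SE 0.080, adjusted p = 0.000837) and by 0.55 in 204298_s_at (difference -0.55, adjusted p = 0.0130). The third LOX probe set differed by -0.48 but did not pass (adjusted p = 0.204). The effects on LOXL1 and on LOXL2 202998_s_at were less negative, by 0.37 (SE 0.055, adjusted p = 0.000925) and 0.40 (SE 0.060, adjusted p = 0.000999). The dimmer LOXL2 probe set 202997_s_at differed by -0.18 (adjusted p = 0.531), so the 2 LOXL2 probe sets do not give the same answer.

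With BRD SMARCA2, 2 of 8 members differed, against 0.484% of all probe sets. LOX 215446_s_at differed by -0.43 (SE 0.080, adjusted p = 0.0169) and LOXL2 202998_s_at by 0.36 (SE 0.060, adjusted p = 0.00822). The LOX call was lost without shLuc BRD replicate 1 (-0.39, adjusted p = 0.0635), and LOXL1 (0.13, adjusted p = 0.365) was not called. With ATPdead, 0 of 8 members differed in limma, where 0.0263% of all probe sets were called and 3118 had an unadjusted p under 0.05. For LOX 215446_s_at the difference was 0.02 (95% interval -0.14 to 0.19), for LOXL1 0.09 (-0.02 to 0.20) and for LOXL2 202998_s_at 0.14 (0.02 to 0.27, unadjusted p = 0.0258, adjusted p = 0.364). The LOX interval with ATPdead does not reach the difference of -0.54 found with WT.

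The cDNA lines carrying S2sh7 show where these differences lay. Against GFP, WT SMARCA2 lowered LOX by 0.55 log2 in 215446_s_at (log2 fold change -0.55, adjusted p = 3.97e-06), and BRD by nearly as much (-0.53, adjusted p = 8.00e-06). The 3 LOX probe sets fell with both cDNAs, LOXL1 rose (0.24 with WT and 0.32 with BRD, adjusted p = 0.000720 and 3.08e-05) and LOXL2 202998_s_at rose (0.53 and 0.48, adjusted p = 1.76e-07 and 4.88e-07). That made 5 of 8 members called with each, against 5.62% of all probe sets with WT and 5.81% with BRD. With ATPdead 1 of 8 was called, LOXL2 202998_s_at at 0.23 (adjusted p = 0.00572, with 2.12% of all probe sets called), while LOX 215446_s_at was 0.20 above GFP without passing (adjusted p = 0.0710). In the ATPdead comparison LOXL1 (0.135, adjusted p = 0.0816) passed only without S2sh7 GFP replicate 2 (0.17, adjusted p = 0.0471). These comparisons share the S2sh7 GFP arrays. The LOX probe set 213640_s_at held its WT call (-0.49, adjusted p = 0.0271) neither without S2sh7 GFP replicate 1 or 2 (-0.48 and -0.43, adjusted p = 0.0828 and 0.1004) nor without any S2sh7 WT replicate (-0.46, -0.50 and -0.51, adjusted p = 0.0774, 0.0689 and 0.0578). Its BRD call (-0.50, adjusted p = 0.0230) was lost without S2sh7 GFP replicate 1 or 2 (-0.49 and -0.44, adjusted p = 0.0702 and 0.0951) or S2sh7 BRD replicate 1 (-0.43, adjusted p = 0.103).

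Set directly against each other under S2sh7, ATPdead and WT SMARCA2 differed in 4 of 8 members, against 2.72% of all probe sets. The 3 LOX probe sets were higher with ATPdead, by 0.73 to 0.85 log2, and LOXL2 202998_s_at was lower (-0.29, SE 0.042, adjusted p = 0.000413). ATPdead and BRD differed in 5 of 8 (2.12% of all), with LOX 215446_s_at higher by 0.73 (adjusted p = 2.85e-07), LOXL2 202998_s_at lower (-0.25, adjusted p = 0.00207) and LOXL1 lower (-0.19, adjusted p = 0.0124). The LOXL1 call was lost without S2sh7 ATPdead replicate 2 (-0.17, adjusted p = 0.0632), S2sh7 BRD replicate 1 (-0.18, adjusted p = 0.0565) or S2sh7 BRD replicate 2 (-0.17, adjusted p = 0.0666). BRD and WT differed in 0 of 8, where 0.0676% of all were called and 2660 had an unadjusted p under 0.05. The 95% interval of that difference was -0.09 to 0.14 log2 for LOX 215446_s_at, -0.13 to 0.05 for LOXL2 202998_s_at and 0.002 to 0.16 for LOXL1 (unadjusted p = 0.0449, adjusted p = 0.489 in limma). None of these differences passed after adjustment, and values inside the intervals remain possible. A SMARCA2 probe set that did read the cDNAs (212257_s_at) averaged 76.7 with WT, 67.1 with BRD, 56.7 with ATPdead and 25.7 with GFP in the S2sh7 lines. In the shLuc lines it averaged 121.3 with WT, 107.5 with BRD, 109.1 with ATPdead and 42.6 with GFP, so it was higher there with every cDNA. On that probe set the fold change between ATPdead and WT was -0.43 log2 and did not pass (adjusted p = 0.175), and the part of the cDNA level in the LOX difference was not tested.

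With the control hairpin the same cDNAs moved LOX and LOXL2 little. Against GFP, WT and ATPdead called 0 of 8 members each (1.84% and 0.161% of all probe sets, with 3786 and 3487 at an unadjusted p under 0.05), and LOX 215446_s_at differed by -0.01 with WT and 0.18 with ATPdead. Only LOXL1 was called in any of the 5 comparisons under shLuc. With BRD it read 406, 432 and 420, against 366, 367.5 and 370.3 with GFP (0.19, adjusted p = 0.0229, 1 of 8 members and 0.901% of all), and against 330.0, 325 and 355 with WT (0.32, adjusted p = 6.19e-05, 4.06% of all). ATPdead was above WT as well (0.17, adjusted p = 0.0186, 2.26% of all). The BRD call against GFP was lost without any 1 of 5 arrays: shLuc GFP replicate 1, 2 or 3 (0.18, 0.19 and 0.19, adjusted p = 0.0994, 0.0736 and 0.0636) or shLuc BRD replicate 2 or 3 (0.17 and 0.19, adjusted p = 0.0902 and 0.0766). The ATPdead call against WT was lost without shLuc WT replicate 1 or 2 (0.16 and 0.15, adjusted p = 0.0881 and 0.113) or shLuc ATPdead replicate 1 or 3 (0.18 and 0.15, adjusted p = 0.0622 and 0.113). Without shLuc ATPdead replicate 1 LOX 204298_s_at passed there instead (0.34, adjusted p = 0.0334). WT against GFP gave -0.13 for LOXL1 (adjusted p = 0.0977), which passed only without shLuc WT replicate 3 (-0.17, adjusted p = 0.0430). The LOXL1 difference between the knockdown effects with WT and GFP is 0.24 under S2sh7 minus -0.13 under shLuc, and that of LOX 215446_s_at is -0.55 under S2sh7 minus -0.01 under shLuc.

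**Figure D3:**
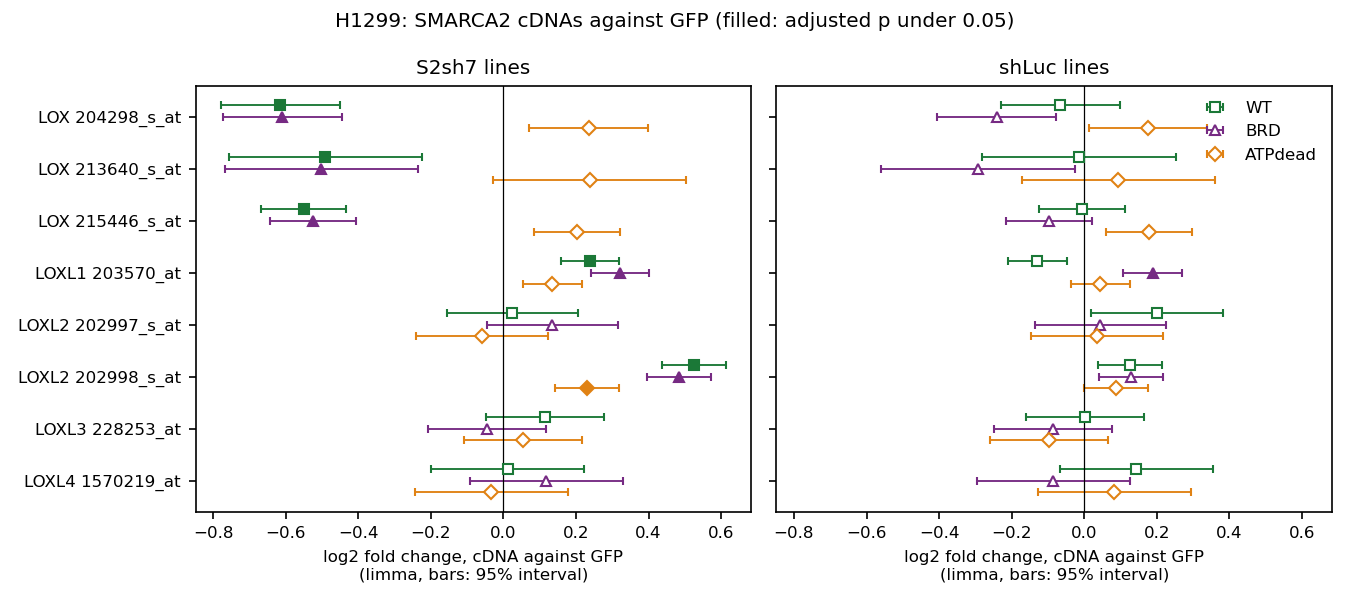
Log2 fold change of each SMARCA2 cDNA against GFP in H1299 (x axis) for the 8 tested probe sets (y axis), S2sh7 lines on the left and shLuc lines on the right, with 95% intervals and filled symbols for an adjusted p under 0.05. Under S2sh7 WT and BRD lie left of 0 for LOX and right of 0 for LOXL1 and LOXL2 202998_s_at, and under shLuc only LOXL1 with BRD (0.19) is filled.

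The 8 H1299 groups can be ordered by their mean. For LOX 215446_s_at the order was S2sh7 ATPdead, S2sh7 GFP, S2sh7 BRD, S2sh7 WT, then shLuc ATPdead, GFP, WT and BRD. Arrays of neighbours overlapped between S2sh7 BRD and WT and among all shLuc groups but not elsewhere. For LOXL2 202998_s_at the order was shLuc BRD, WT, ATPdead and GFP, then S2sh7 WT, BRD, ATPdead and GFP, with overlap among the shLuc groups and between S2sh7 WT and BRD. LOXL1 ran from shLuc BRD through shLuc ATPdead, GFP and WT to S2sh7 BRD, WT, ATPdead and GFP, and its arrays overlapped only between shLuc ATPdead and GFP and between shLuc WT and S2sh7 BRD. Over these 8 group means, which share the hairpin contrast, the 3 LOX probe sets correlated at 0.9955 or above with 215446_s_at. LOX 215446_s_at and LOXL2 202998_s_at correlated at -0.968, and LOX and LOXL1 at -0.876.

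In A549 LOXL2 was the member that fell. Probe set 202998_s_at read 180 with S2sh7 and 281 with shLuc in the WT SMARCA4 lines, and 124 with S2sh7 and 310.1 with shLuc in the BRD lines. It read 156.5 with S2sh7 and 353 with shLuc in the ATPdead lines, and 127 with S2sh7 and 294 with shLuc in the GFP lines. It was lower with S2sh7 in 4 of 4 pairs, by log2 differences of -0.65, -1.32, -1.17 and -1.21 with WT, BRD, ATPdead and GFP. The additive fit gave -1.09 (SE 0.122, 95% interval -1.39 to -0.78, adjusted p = 0.0121), and this was 1 of 7 tested members called, against 21.2% of all 31528 tested probe sets. The call was lost without the pair of GFP arrays (-1.05, adjusted p = 0.0538) or the pair of ATPdead arrays (-1.06, adjusted p = 0.0708). Whether the smaller difference with WT SMARCA4 departs from the others cannot be tested with 1 array a group. The second LOXL2 probe set, 202997_s_at, was lower in 4 of 4 pairs as well (-0.33, adjusted p = 0.0544), and passed only without the pair of WT arrays (-0.43, adjusted p = 0.0487). The other LOXL2 probe sets were tested in A549, were not called and had mixed signs. With WT, BRD, ATPdead and GFP, 202999_s_at differed by -0.41, -0.07, 0.13 and -0.04 log2. In the same order 228808_s_at differed by -0.09, 0.04, 0.14 and -0.18.

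Some markers moved with the hairpin in A549. The 7 fibroblast markers summed to 810.5 to 1308 with S2sh7 and 580 to 741 with shLuc, with 5 of 7 passing and LUM at most 19.9. Among those passing, COL3A1 averaged 6.96 log2 with S2sh7 and 4.14 with shLuc, and COL1A1 9.26 with S2sh7 and 8.65 with shLuc. The others differed less, with S2sh7 first: DCN 5.75 and 5.84, PDGFRB 5.09 and 5.24, and THY1 6.62 and 6.57. The 3 leukocyte markers found summed to 110 to 159 with S2sh7 and 170.3 to 210.4 with shLuc, with PTPRC at most 15.3. CD14 averaged 5.69 log2 with S2sh7 and 6.82 with shLuc, and CD3E 6.00 with S2sh7 and 6.08 with shLuc. The 4 endothelial markers summed to 129 to 144 with S2sh7 and 133 to 150 with shLuc, with 2 passing (PECAM1 and VWF). The 7 carcinoma markers summed to 27790 to 30920 with S2sh7 and 35690 to 40090 with shLuc. The part of all these marker differences in the LOXL2 difference was not tested. The difference between 3′ and 5′ ACTB control probe sets, a sign of RNA quality, averaged 0.191 log2 with S2sh7 and 0.209 with shLuc in A549, and 0.237 with S2sh7 and 0.247 with shLuc in H1299.

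LOXL4 227145_at lay below the cutoff in H1299 (percentile 48.5 of all probe sets) and passed it in A549 (percentile 57.3). It read 75.9 with S2sh7 and WT SMARCA4, against 51.6 with shLuc and WT, but 43.6 with S2sh7 and ATPdead, against 59.35 with shLuc and ATPdead. With BRD it read 58.8 with S2sh7 and 54.7 with shLuc, and with GFP 47.8 with S2sh7 and 52.9 with shLuc. The signs of these 4 differences were mixed, and the additive effect was 0.02 (adjusted p = 0.951). LOXL3 ranged from 40.3 to 46.1 and the other LOXL4 probe set, 1570219_at, from 49.4 to 62.7. That LOXL4 probe set did not share the signs of 227145_at throughout. It differed by -0.16 log2 with WT, 0.17 with BRD, -0.03 with ATPdead and -0.23 with GFP. LOX and LOXL1 stayed between 6.44 and 18.0 on the 8 arrays, too low to show a fall. SMARCA4 with an intact ATPase (WT and BRD together) against ATPdead and GFP gave 0 of 7 members and 0% of all 31528 probe sets in limma, where 3847 had an unadjusted p under 0.05. For LOXL2 202998_s_at that difference was -0.02 (adjusted p = 0.928). A SMARCA4 probe set that was brighter with the SMARCA4 cDNAs than with GFP (212520_s_at) was not at the same level under both hairpins. It read 236 with S2sh7 and 99.8 with shLuc with WT, and 240 with S2sh7 and 121 with shLuc with BRD. With ATPdead it read 151 with S2sh7 and 116 with shLuc, and with GFP 31.3 with S2sh7 and 23.6 with shLuc. The part of the cDNA level in the A549 values was not tested.

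**Figure D4:**
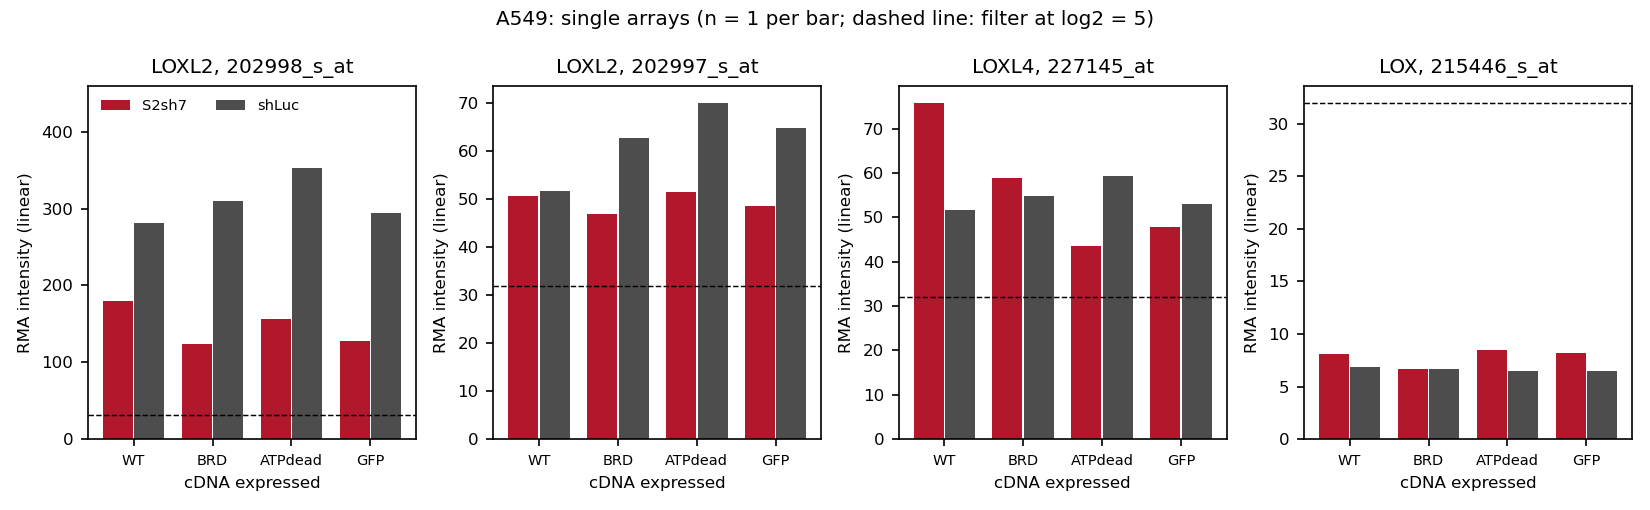
Linear RMA intensity (y axis, from 0) of 4 lysyl oxidase probe sets in A549 by SMARCA4 cDNA or GFP (x axis), 1 array per bar, S2sh7 in red left of shLuc in grey, with a dashed line at the testing threshold of log2 = 5. LOXL2 202998_s_at is lower with S2sh7 in 4 of 4 pairs, LOXL4 is higher with S2sh7 with WT and BRD and lower with ATPdead and GFP, and LOX lies below the threshold on every array.

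Genes that act before, beside or after the lysyl oxidases were counted from fixed lists, with the probe set of the highest mean for each gene. In the comparison with GFP, 31.2% of all tested probe sets were called (12.9% higher and 18.3% lower), and no list below was tested against that share. For the hairpin in H1299 with GFP, procollagen-modifying enzymes and chaperones had 3 higher, 4 lower and 9 uncalled of 16 tested. The collagen chaperone FKBP10 rose (0.28, adjusted p = 9.65e-05), and the prolyl hydroxylases P4HA2 (-0.30), P3H1 (-0.23) and P3H2 (-0.33) fell. PLOD2, the telopeptide lysyl hydroxylase that sets the cross-link type, was at 0.01 (adjusted p = 0.870). Of the 11 substrates, which are fibrillar and basement membrane collagens and elastin, only COL1A1, COL5A3 and ELN were bright enough to be tested, and none of the 3 was called (0.09, 0.17 and 0.13, adjusted p = 0.397, 0.106 and 0.446). With 8 of 11 substrates below the threshold, a fall in their RNA, or a rise that stayed below it, could not have been seen. A rise past the threshold in at least 3 arrays would have brought a substrate into the test. In A549, 10 of the 11 were tested, and the hairpin gave 2 higher, 0 lower and 8 uncalled (21.2% of all probe sets called there).

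Processing factors and matrix partners had 2 higher, 2 lower and 5 uncalled of 9. BMP1, the proteinase that activates proLOX, fell (-0.25, adjusted p = 0.00238), as did the matrix glycoprotein THBS1 (-0.89, adjusted p = 1.76e-08), while the procollagen proteinase enhancer PCOLCE2 (0.27) and the procollagen N-proteinase ADAMTS14 (0.20) rose. Elastic fibre genes had 2 higher, 3 lower and 3 uncalled of 8. The latent TGF-beta binding proteins LTBP2 (-0.55, adjusted p = 8.56e-10) and LTBP1 (-0.44) and the microfibril glycoprotein MFAP2 (-0.21) fell, and fibrillin FBN2 rose (0.40, adjusted p = 1.50e-05). Copper supply genes had 1 higher, 2 lower and 3 uncalled of 6. The copper importer SLC31A1 (-0.18) and the copper chaperone ATOX1 (-0.17) fell, the chaperone CCS rose (0.13, adjusted p = 0.0455), and ATP7A, the pump that loads copper onto secreted lysyl oxidases, was at 0.19 without passing (adjusted p = 0.0617). Of 3 other amine oxidases, spermine oxidase SMOX fell (-0.51, adjusted p = 4.71e-05) and 2 were uncalled.

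Known regulators of the family had 1 higher, 6 lower and 7 uncalled of 14, with a median of -0.16 against -0.003 over all probe sets. SNAI2, a mesenchymal transcription factor whose relative SNAI1 is stabilised by LOXL2, averaged 16.1 with S2sh7 and GFP, against 33.4 with shLuc and GFP (-1.06, adjusted p = 1.25e-06). EPAS1, the HIF-2 alpha subunit, averaged 25.3 with S2sh7 and 37.6 with shLuc (-0.57, adjusted p = 3.35e-05). With S2sh7 and GFP all 3 arrays lay below the testing threshold of log2 5 for both genes, which entered the test through arrays where they were higher. The size of either fall is therefore uncertain. Both genes also enter the count of 6 lower and the median of the list, which are thus partly set by the filter. IRF1 (-0.63) and the TGF-beta effector SMAD3 (-0.31) fell as well. HIF1A, the other hypoxia-inducible alpha subunit, was at 0.02 (adjusted p = 0.746). The activity of these factors was not measured, and their part in the LOX difference was not tested.

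With the SMARCA2 cDNAs the same lists moved in part. Over all tested probe sets the hairpin called 13.6% higher and 13.5% lower with WT, 10.3% and 15.2% with BRD, and 15.8% and 14.2% with ATPdead. It called 2 of 14 regulators higher and 5 lower with WT, 1 and 6 with BRD and 3 and 6 with ATPdead. Procollagen modifiers had 5 higher and 2 lower of 16 with WT, 0 and 4 with BRD and 1 and 5 with ATPdead. THBS1 fell with WT (-0.94), BRD (-0.76) and ATPdead (-0.76) as well. In the difference between the effects with WT and GFP, MFAP2 (0.20, adjusted p = 0.0431) and SMAD3 (0.22, adjusted p = 0.0320) were called, and the other named genes of these lists were not. In A549 LTBP2 fell (-0.44, adjusted p = 0.0334), as did SLC31A1 (-0.55), EPAS1 (-0.51), BMP1 (-0.52) and FBN2 (-1.27), whereas P3H2 (1.04) and IRF1 (0.25) rose. FBN2, P3H2 and IRF1 thus had a called sign in A549 opposite to that in H1299 with GFP. The difference between the lines was not tested.

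Over the 8 H1299 group means, the genes whose pattern was most like LOX 215446_s_at, among 1520 varying probe sets with a range of at least 0.5 log2, were ADGRL2 (r = 0.995), TM4SF18 (0.991), MEF2C (0.989), TSNARE1 (0.988) and SPATA2L (0.987). Over the 8 A549 arrays, where LOX is near background, the same probe sets correlated with it at 0.07, -0.67, 0.54, -0.35 and 0.84. Most like LOXL2 202998_s_at, among 1521, were NR1D2 (r = 0.998), EMP1 (0.997), GBP1 (0.997), SLFN5 (0.997) and LETM2 (0.996). Over the A549 arrays they correlated with LOXL2 at 0.16, 0.82, 0.76, -0.22 and 0.96 in that order. The points share the hairpin contrast and the array normalization, so these values rank patterns and nothing more.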

How the data were processed

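The expression values per probe set of Affymetrix HG-U133 Plus 2.0 arrays, deposited by the authors, are intensity on a linear scale. The submitters' processing notes name RMA and limma, and their versions are not given in the sources used here. Symbols came from GEO's platform annotation, which gave a single symbol for 41097 of 54675 probe sets, several for 1801 and none for 11777. Array medians were 26.4 to 27.3 in H1299 and 40.1 to 41.2 in A549, and no 2 arrays held identical values. There is no read depth, so the number of arrays sets the precision.

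From these values log2 was taken with no pseudocount. Probe sets with log2 over 5 in at least 3 arrays of a line were kept. Each line was fitted on its own in limma 3.58.1 (R 4.3.3, with the data.table package at 1.17.8) with default eBayes and Benjamini-Hochberg adjustment over all tested probe sets (26637 in H1299, 31528 in A549), and called at adjusted p under 0.05. H1299 had 1 mean per group (16 residual degrees of freedom) and A549 additive cDNA and hairpin terms (3). Simulated data with 200 shifted probe sets tested the fits. At a shift of 0.5 log2 the H1299 fit (GFP knockdown) found 93.5% of them and the A549 fit 0%, and at 1 log2 they found 100% and 94%. Far more probe sets moved in the real data, where 21.2% of all were called in the A549 knockdown. The adjustment was therefore stricter in the simulation, and its shares do not give what the real fits could detect.

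The named genes were the 5 members, SMARCA2 and SMARCA4, up to 4 called genes with the smallest adjusted p per list, and the 5 genes most like LOX and LOXL2. HIF1A, ATP7A, PLOD2 and the 3 tested substrates were added after their values were seen. The members, lists and rules were chosen with earlier results of these data known. Marker lists and the array checks used the same values. As alternatives the filter was dropped or set at log2 over 6, each gene was given 1 probe set, arrays were quantile normalized again, centred or weighted, eBayes was run with trend and robust, fits used only the arrays compared or a replicate block, and each array (each pair in A549) was left out. Promoters came from RefSeq (GRCh38.p14). A window was used for 4 of the 5 genes, and LOXL2 was not searched. Figures used Python 3.11.15 with matplotlib 3.10.9 and pandas 2.3.3.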

Additional observations from a re-analysis of the deposited data

Results flagged for a closer look

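The effect of the SMARCA2 hairpin in H1299 differed between a SMARCA2 cDNA line and the GFP line for 6 member results, each by the test of the difference itself. With WT SMARCA2 the differences were -0.55 for LOX 204298_s_at, -0.54 for LOX 215446_s_at, 0.37 for LOXL1 203570_at and 0.40 for LOXL2 202998_s_at. With BRD they were -0.43 for LOX 215446_s_at and 0.36 for LOXL2 202998_s_at. All are in log2 and share the GFP arrays. In each of them the effect with the cDNA was nearer to 0 than with GFP.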

How the results depend on the processing

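Over all member tests and alternatives, 2260 results kept their side of the threshold, 51 lost the call and 23 gained it. Only some uncalled results changed sign. The 4 differences between the knockdown effects with WT and GFP stayed called under every alternative run, with highest adjusted p of 0.0413 for LOX 204298_s_at, 0.0306 for LOX 215446_s_at, 0.0248 for LOXL1 and 0.00749 for LOXL2 202998_s_at. Dim members are limited by signal near background, A549 by 1 array a group. Unless named, causes were not tested.

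The number of called members changed by over 1.5 times as follows. With no filter the BRD against GFP difference of effects gave 0, and BRD against GFP and ATPdead against WT under shLuc gave 0 and 0. With log2 over 6, ATPdead against GFP under S2sh7 gave 3. With 1 probe set per gene, which leaves fewer members by construction, the knockdown gave 3 with GFP, 2 with WT, 4 with BRD and 4 with ATPdead, and under S2sh7 WT against GFP gave 3, BRD against GFP 3, ATPdead against WT 2 and ATPdead against BRD 3. Quantile normalization gave 2 for ATPdead against GFP under S2sh7 and 2 for ATPdead against WT under shLuc. Centred arrays gave 1 for the BRD against GFP difference of effects and 0 for BRD against GFP under shLuc. Trend and robust eBayes gave 3 for ATPdead against GFP under S2sh7 and 3 for ATPdead against WT under shLuc. Array weights gave 1 for WT against GFP and 3 for ATPdead against WT, both under shLuc. With only the arrays compared the BRD against GFP difference gave 1, under S2sh7 ATPdead gave 0 against GFP, 2 against WT and 2 against BRD, and under shLuc BRD against GFP, ATPdead against WT and BRD against WT gave 0, 0 and 0. Smaller changes were the gain of LOXL1 (log2 over 6, adjusted p = 0.0491) or LOXL3 (quantile normalization, 0.0451, or only the arrays compared, 0.0422) in the knockdown with WT, which then gave 6, and the loss of LOXL3 in the knockdown with ATPdead (no filter, 0.0595). Under S2sh7 LOX 213640_s_at was lost in WT against GFP (array weights, 0.0551, or no filter, 0.0673) and in BRD against GFP (no filter, 0.0569), and LOXL1 in WT against GFP (only the arrays compared, 0.0884) and in ATPdead against BRD (centred arrays, 0.0533, or no filter, 0.0682). In A549 the knockdown gave 0 without the GFP pair, 2 without the WT pair and 0 without the ATPdead pair.

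Leaving out each array in turn, the counts ranged from 6 to 7 for the knockdown with GFP, 5 to 6 with WT, 6 to 7 with BRD and 6 to 7 with ATPdead, from 1 to 2 for the BRD against GFP difference, and from 1 to 2 for ATPdead against GFP under S2sh7. Under shLuc WT and BRD against GFP and ATPdead against WT each ranged from 0 to 1.

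With the replicate number as a block the count changed for ATPdead against GFP under S2sh7 and for ATPdead against WT under shLuc, to 2 in each, and for no other comparison. No label gives a number a shared source, and same-numbered arrays did not deviate together (r from -0.28 to 0.33, 14 of 84 pairs over 0.1, 9 of 24 arrays closest to their own number).

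Over all probe sets, the knockdown with GFP called 6485 to 8867 under the other settings (8302 as reported), the WT against GFP difference 165 to 911 (543), the BRD against GFP difference 19 to 321 (129) and the ATPdead against GFP difference 3 to 80 (7). Under S2sh7 the ranges were 191 to 2082 for WT against GFP (1497), 416 to 2104 for BRD against GFP (1547), 5 to 887 for ATPdead against GFP (566), 26 to 1132 for ATPdead against WT (724), 18 to 823 for ATPdead against BRD (566) and 0 to 134 for BRD against WT (18). Under shLuc they were 29 to 1182 for WT against GFP (491), 8 to 738 for BRD against GFP (240), 4 to 517 for ATPdead against GFP (43), 187 to 1557 for ATPdead against WT (602) and 131 to 2185 for BRD against WT (1081). The knockdown with BRD ranged from 4352 to 8092 (6781). Quantile normalization moved the split of higher to lower calls to 4578 and 4289 for the knockdown with GFP (3432 and 4870 as reported), 3728 and 3656 with BRD (2740 and 4041), 380 and 242 for the WT against GFP difference (422 and 121), and 301 and 279 for WT against GFP under shLuc (176 and 315). Centred arrays moved it to 393 and 41, and to 88 and 328, for these last 2, to 296 and 142 for ATPdead against BRD under S2sh7 (313 and 253), and to 729 and 195 for BRD against WT under shLuc (714 and 367).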
